A study of Mus musculus with 150 samples.

Results

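The abc.del genotype is a triple deletion on mouse chromosome 16 in cas/129 hybrid embryonic stem cells (mESC). Its members were the samples whose titles begin with abc.del, which are 6 of the 150 samples of the series. They are 2 clones, A6 and E2. Clone A6 has 2 libraries and clone E2 has 1, and each library is a pair of samples, 1 from early and 1 from late S phase, so that the 6 samples give 3 replication timing profiles. The 3 intervals removed are interval a (chr16:48308399-48311882, 3.48 kb), interval b (chr16:48396806-48437301, 40.5 kb) and interval c (chr16:48581359-48620367, 39.0 kb), in the mm10 build. After 2 h of BrdU labelling, cells were sorted by DNA content, and BrdU-containing DNA was pulled down from each fraction and sequenced.

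Replication timing is the order in which stretches of the genome are copied during S phase. Neighbouring replication origins fire at similar times and form domains much longer than a gene. Early domains are generally gene-rich and transcriptionally active, late domains are generally poor in active genes and lie at the nuclear periphery, and many domains change their time when stem cells differentiate. The deletions lie in a domain that is early in mouse embryonic stem cells. It holds Dppa4 and Dppa2, which encode SAP-domain chromatin proteins made in pluripotent and germ cells, and Morc1, which encodes a germ-line ATPase that represses transposable elements. No RNA was measured in these samples, so neither the transcription of these genes nor the stem cell identity of the cultures was checked by markers.

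The deposited score has 1 value per position, 5 kb apart, and a higher score means earlier replication. Each hybrid profile has a svim and a cast column, which by their names stand for the 129 and the castaneus chromosome of the cell. The score is an average over the sorted cells, so a late time in every cell cannot be told apart from a mixture of cells with different times. In the 6 abc.del columns, the medians of 11 genes known for early replication lay between 2.96 and 3.24, and those of 11 genes known for late replication between -2.55 and -2.22. The repeat libraries of A6 had a Pearson r of 0.997 across chromosome 16 positions in either allele, and A6 and E2 had 0.984 in svim and 0.982 in cast. These coefficients run across neighbouring positions of smoothed profiles, which are not independent. Read depth is unknown for these files.

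No unedited cas/129 profile was used here. The cast allele of the same clone served as the internal reference, together with 5 comparison clones that carry smaller edits nearby: 30kdel clones B11 and C2 (chr16:48665576-48695490 deleted), 29kdel clone D8 (chr16:48235963-48264883 deleted), 14kdel clone D11 (chr16:48264884-48280115 deleted) and 24.5kinv clone 3 (chr16:48311882-48336437 inverted). Their edits lie outside intervals a, b and c and outside the interval deleted in 4kdel, per the labels. The effect of their own edits cannot be told apart from that of other clone differences. The second condition left out 4kdel C6 and G4 and 18kdel D6 and E12, which keep a, b and c. In the domain left of a these were later on svim (0.96, -0.33, 0.15 and 0.83) than the comparison clones (1.11 to 2.38). Both abc.del clones were later still there (-2.84 and -2.61). The double deletions ab.del, ac.del and bc.del, which lack the named 2 of the 3 intervals, have 2 clones each. Clones are the replicates throughout, and the libraries of a clone were averaged. Permutation p-values rest on the spread between clones alone. In limma the spread of each window, segment or gene is pulled toward that of all those fitted together. Neighbouring windows are not independent, so very small limma p-values do not measure the spread between these few clones alone.

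The labels do not say which chromosome was cut. The 3 intervals contain 17 positions of the table. In each of the 3 abc.del profiles 16 of these 17 were blank in svim and 0 were blank in cast. Intervals b and c were blank in full on svim. The single position inside interval a kept a value. It was left out of all values given here. Comparisons with other clones also left out the positions inside the deletions of those clones, and kept those inside the inversion of 24.5kinv, where no sequence is missing.

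Interval a overlaps 1.61 kb of Dppa2, or 17.4% of that gene. Interval b holds the whole of Gm5485, a long non-coding RNA gene, and 6.07 kb of Morc1, or 3.04% of it. Interval c lies within Morc1, of which it covers 19.5%, and holds the whole of the long non-coding RNA gene Gm41458. The promoter of Gm5485 is the one removed on svim that the RefSeq promoter table (GRCm38.p6, the mm10 assembly) holds. It is shown here with those of Trat1 and Retnlg, the nearest and the farthest gene right of c whose timing changed. Each sequence spans 250 bases before to 50 bases after a gene start of the table and runs 5′ to 3′ on the gene's strand: chr16:48412367-48412666 on the minus strand for Gm5485, chr16:48772013-48772312 on the minus strand for Trat1 and chr16:48872358-48872657 on the plus strand for Retnlg. The start used for Trat1 lies inside the gene body over which its timing was averaged (chr16:48730774-48810547). Capitals mark the TATA box letters TATAAA or their reverse complement TTTATA, and the CCAAT box letters CCAAT or their reverse complement ATTGG.
Gm5485: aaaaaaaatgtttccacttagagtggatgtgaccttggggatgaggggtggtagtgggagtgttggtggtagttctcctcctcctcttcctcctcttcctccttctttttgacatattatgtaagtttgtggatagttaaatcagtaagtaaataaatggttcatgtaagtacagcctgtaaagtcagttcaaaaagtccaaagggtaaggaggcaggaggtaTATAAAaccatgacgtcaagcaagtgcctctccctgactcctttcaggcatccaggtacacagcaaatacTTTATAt
Trat1: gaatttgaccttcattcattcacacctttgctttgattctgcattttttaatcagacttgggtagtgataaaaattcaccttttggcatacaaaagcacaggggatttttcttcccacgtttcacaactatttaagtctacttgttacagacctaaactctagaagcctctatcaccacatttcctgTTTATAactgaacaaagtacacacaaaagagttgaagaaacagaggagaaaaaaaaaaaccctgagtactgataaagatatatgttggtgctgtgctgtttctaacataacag
Retnlg: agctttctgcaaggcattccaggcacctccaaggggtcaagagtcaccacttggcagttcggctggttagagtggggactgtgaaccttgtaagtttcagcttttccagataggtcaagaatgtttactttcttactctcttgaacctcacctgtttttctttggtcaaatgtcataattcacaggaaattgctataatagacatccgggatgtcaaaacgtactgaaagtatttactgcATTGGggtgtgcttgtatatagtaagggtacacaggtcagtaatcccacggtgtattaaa
The TATA box letters occur 2 times in the Gm5485 promoter and 1 time in that of Trat1, and the CCAAT letters 1 time in that of Retnlg, with no overlap between the matches. Of 32544 promoters of the same length in the table, 13.6% hold the TATA letters and 37.4% the CCAAT letters. The octamer ATGCAAAT, the letters bound by POU factors, was in none of the 3 on either strand and in 1.75% of all promoters. The number of CpG dinucleotides was 1 for Gm5485, 1 for Trat1 and 4 for Retnlg, against a median of 7 over the table. Of all promoters in the table, 14.0% hold at most 1 and 43.2% at most 5, so that such counts are not rare. Dppa2, Dppa4, Morc1 and Retnlb were not matched in the table. Intervals a and b cover the left ends of Dppa2 and Morc1, and whether they also remove the promoters of these genes was not examined.

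The domain replicated late on svim in both abc.del clones, while cast stayed early. The domain is taken as chr16:48190131-48620367, and its value is the mean over the 60 positions outside the deletions of abc.del and the comparison clones. On svim the domain score was -2.75 and -2.70 in the libraries of A6 and -2.90 in E2. On the same allele it was 1.87 in 30kdel B11, 2.75 in 30kdel C2, 1.81 in 29kdel D8, 2.30 in 14kdel D11 and 1.59 in 24.5kinv clone 3. Both abc.del clones thus lay below all 5 comparison clones, on the other side of 0, and the gap to the nearest of them was many times the difference between A6 and E2 of 0.17. The abc.del mean was -2.81 (n = 2 clones) against 2.06 ± 0.46 (SD, n = 5), a difference of -4.88 ± 0.39 (SE, limma adjusted p = 3.62e-06). The exact two-sided permutation test over clones gave p = 0.0476, the smallest it can give with these numbers.

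On cast the domain score was 2.74 and 2.52 in the libraries of A6 and 2.56 in E2, and the comparison clones ran from 1.73 to 3.13 with a median of 2.60. The abc.del clones lay inside that range. The difference was 0.05 ± 0.42 (SE, limma adjusted p = 0.9999, exact permutation p = 0.9524). A shift of the homologous chromosome was not detected at this error, which does not show that there was none.

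Within each cell line the alleles were therefore far apart. The svim score minus the cast score was -5.49 and -5.22 in the libraries of A6 and -5.46 in E2, against -0.48 ± 0.33 (SD, n = 5) for the comparison group, whose values ran from -0.83 to -0.15. The groups did not overlap, and the difference of -4.93 ± 0.27 (SE) had a limma adjusted p of 6.45e-08.

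**Figure D1:**
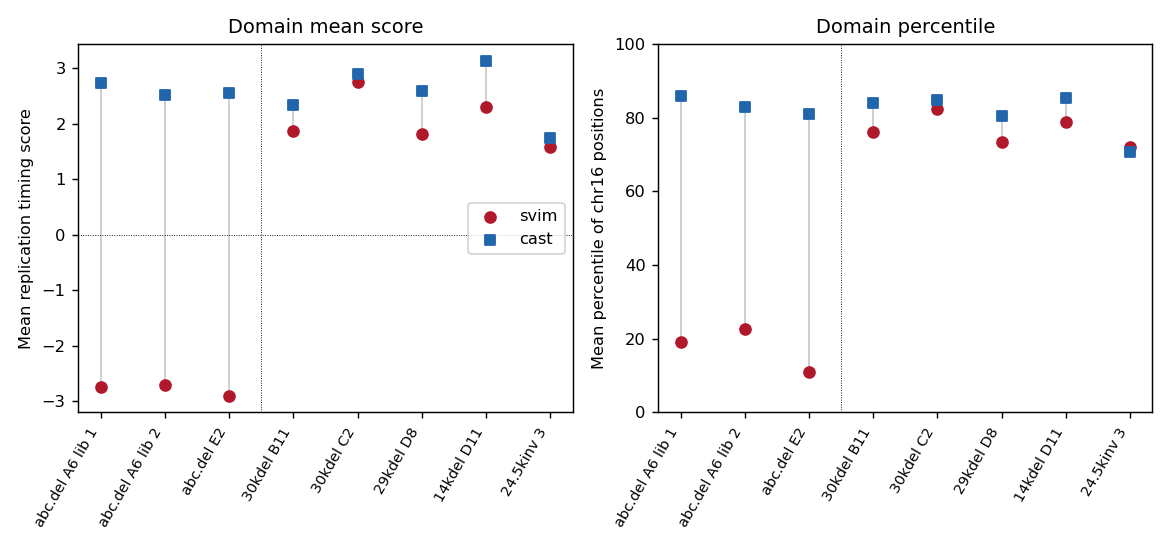
Mean domain score (left) and mean percentile of the domain among all chromosome 16 positions of the column (right) for svim (circles) and cast (squares) of each abc.del library and each comparison clone; the grey line joins the alleles of a profile. The 3 abc.del libraries have svim between -2.90 and -2.70 and cast between 2.52 and 2.74, while the comparison clones have both alleles above 1.5.

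The percentile of the domain among all positions of its own column does not depend on how columns were scaled to each other. On svim the domain stood at the 19.2 and 22.5 percentiles in the libraries of A6 and at 11.02 in E2. The comparison clones stood between 72.1 and 82.4. The mean fell from 76.6 to 15.9, a difference of -60.6 points (exact permutation p = 0.0476, the smallest possible). On cast it was 82.5 in abc.del against 81.1, higher by 1.39 points (exact permutation p = 0.8095). The svim domain thus stood above the middle of the chromosome in every comparison clone and far below it in both abc.del clones.

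No part of the domain was early on svim in abc.del. Where early is defined as a score above the column's own chromosome 16 median, 0 of 69 domain positions outside intervals a, b and c were early on svim in each of the 3 abc.del libraries, and 69 of 69 were early on cast. On cast the early stretch around the domain ran from 47900000 to 49075000 and from 47900000 to 49060000 in the libraries of A6 and from 47915000 to 49050000 in E2, or 1175, 1160 and 1135 kb. The comparison clones had early stretches of 1045 to 1210 kb on svim. On the svim allele of abc.del the nearest early position on the left was at 46610000 and 46625000 in A6 and at 45835000 in E2. On the right it was at 48870000 and 48890000 in A6 and at 49585000 in E2. On both sides the nearest early position was farther away in E2 than in A6. On the right this hangs on the cutoff. E2 had a local maximum of -1.61 at 48960000, just below its column median of -1.52.

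**Figure D2:**
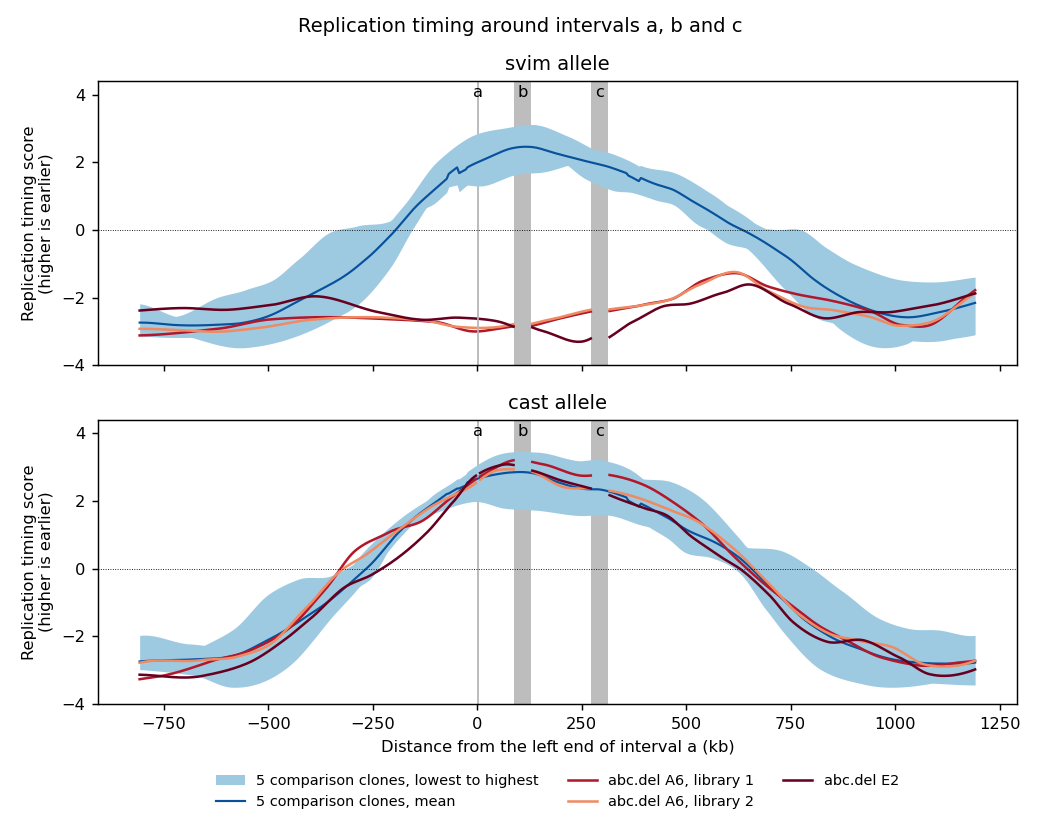
Replication timing score (5 kb positions, higher is earlier) against distance from the left end of interval a for svim (top) and cast (bottom); red and orange lines are the 3 abc.del libraries, the blue band and line are the range and mean of the 5 comparison clones, and grey bars are intervals a, b and c. On svim the abc.del lines stay between -3.30 and -2.36 across the domain where the comparison clones peak. On cast they mostly follow the comparison clones, but E2 falls below their range around the left end of the domain.

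Cut into segments, the svim difference was largest between the deleted intervals and smaller on both sides. In the 100 kb left of the domain the score was -2.65 in A6 and -2.59 in E2 against 0.42 ± 0.43 (SD, n = 5), a difference of -3.04 ± 0.38 (SE, limma adjusted p = 2.03e-04). In the domain left of a the difference was -4.23 ± 0.39 (limma adjusted p = 8.50e-06). Between a and b it was -5.04 ± 0.43 (limma adjusted p = 4.12e-06) and between b and c -5.09 ± 0.39 (limma adjusted p = 3.02e-06). In the 100 kb right of c, outside the deleted intervals, it was still -4.22 ± 0.38 (limma adjusted p = 6.30e-06). In all 5 segments both abc.del clones lay below all 5 comparison clones.

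The comparison clones rose and fell across these segments, and the abc.del clones were nearly flat. Their svim means were 0.42, 1.52, 2.24, 2.22 and 1.67 from left to right, and those of abc.del were -2.62, -2.72, -2.80, -2.86 and -2.55. The abc.del clones had different shapes along this floor. A6 was -2.81 left of a, -2.89 between a and b, -2.58 between b and c and -2.29 right of c. E2 was -2.62, -2.71, -3.14 and -2.82 in the same order. The lowest domain position was at 48305000 and 48315000 in the libraries of A6, next to interval a, and at 48550000 in E2, near interval c. Between b and c A6 exceeded E2 by 0.56, while the libraries of A6 differed by 0.05 in size and the comparison clones had an SD of 0.41. With 1 library of E2 this difference between clones has no test. On cast A6 exceeded E2 by 0.73 in the 100 kb left of the domain, where the comparison clones had an SD of 0.20. There E2 was 0.58, below the comparison range of 1.17 to 1.64, and A6 was 1.31. This difference has no test either.

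The difference between the alleles peaked beside interval b. The most negative svim minus cast value was -6.04 at 48395000 in A6 library 1, -5.78 at 48365000 in A6 library 2 and -5.92 at 48395000 in E2. These positions lie between a and b, in the stretch where the cast profile itself was highest (48395000, 48380000 and 48380000). Around it svim stayed below cast, by more than the alleles of any comparison clone differed at the same position, over 1230, 1285 and 1100 kb without interruption. This stretch began 340.1, 355 and 215 kb left of the domain and ended 459.6, 499.6 and 455 kb right of c. When chromosome 16 was ranked by the size of svim minus cast in 50 kb windows, the top 10 windows of each abc.del library all lay within 300 kb of the domain, and in the comparison clones 0 of the top 10 did.

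**Figure D3:**
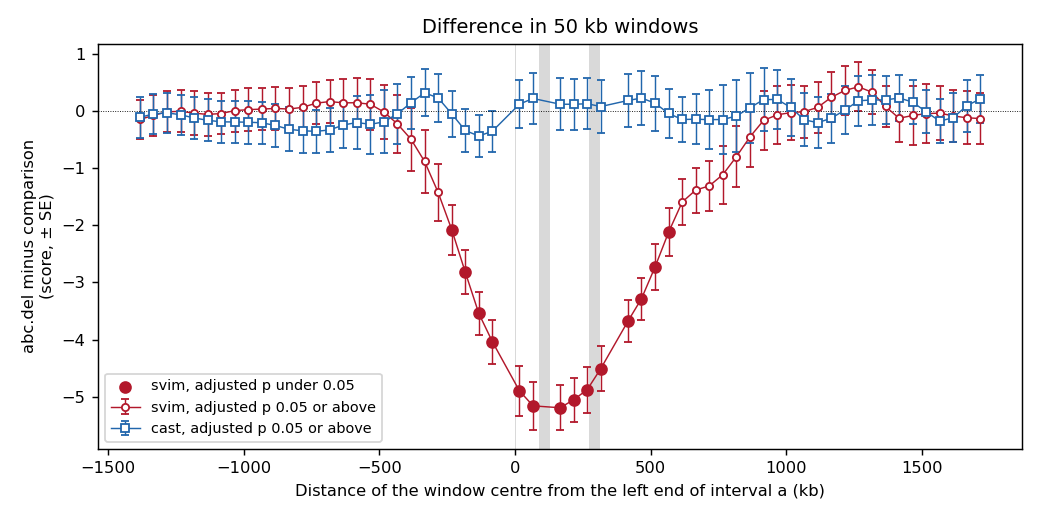
Score difference between abc.del and the 5 comparison clones (mean ± SE from limma) in 50 kb windows by distance of the window centre from the left end of interval a, for svim (red circles) and cast (blue squares); filled symbols have an adjusted p under 0.05 and grey bars are the deleted intervals. The svim difference reaches -5.19 and returns to 0 on both sides, and every cast window is open.

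In 50 kb windows over the whole chromosome, 14 of 1892 were later on svim in abc.del (0.74% of those tested, limma adjusted p under 0.05) and 0 were earlier (28 had an unadjusted p under 0.05 in either direction). All 14 were in a single run from 48050001 to 48900000, 850 kb long, in which the other windows had too few positions left. The deepest was chr16:48450001-48500000, between b and c, with -2.68 in A6 and -3.04 in E2 against 1.75 to 3.01 among the comparison clones, which puts the difference at -5.19 ± 0.40 (SE, limma adjusted p = 3.02e-06). The last window on the left, chr16:48050001-48100000, differed by -2.07 (limma adjusted p = 0.0326), and the last on the right, chr16:48850001-48900000, by -2.12 (limma adjusted p = 0.0192).

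Beyond the run the difference faded gradually. The profiles are smoothed, so a sharp step could not have been seen. The windows just outside, chr16:48000001-48050000 and chr16:48900001-48950000, differed by -1.42 and -1.59 with both clones below all comparison clones, and did not pass (limma adjusted p = 0.9999 and 0.1349). Of the 1795 windows over 2 Mb from every edit, 0 passed on svim. On cast 0 of 1892 windows passed in limma (0.0% of those tested, 9 with an unadjusted p under 0.05). For svim minus cast 14 windows were lower (0.74%), in a run with the same ends, and 73 had an unadjusted p under 0.05.

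Of the genes of chromosome 16, 7 of 679 were later on svim in abc.del (1.03%, limma adjusted p under 0.05) and 0 were earlier (11 had an unadjusted p under 0.05). On cast 0 of 679 passed in limma (4 with an unadjusted p under 0.05). A gene's score is the mean over the positions in its body outside these deletions. The domain list holds Dppa4, Dppa2 and Morc1, and all 3 were later on svim, with a median difference of -4.82 against 0.07 over all genes.

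Dppa4, left of interval a, had a svim score of -2.93 in A6 and -2.60 in E2, against 1.86, 2.73, 1.36, 2.07 and 1.32 in the comparison clones. The groups were apart by more than 3 score units, and the difference was -4.64 ± 0.43 (SE, limma adjusted p = 6.73e-06). Its cast score was 2.44 and 2.55, within the comparison range of 1.97 to 2.90.

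Dppa2 loses part of its body with interval a and was measured at 1 remaining position, which lies inside the inversion of the 24.5kinv clone. Its svim score was -2.94 in A6 and -2.63 in E2 against 1.30 to 2.87, a difference of -4.82 ± 0.44 (SE, limma adjusted p = 6.73e-06). On cast it was 2.68 and 2.83, again within the comparison range. Morc1 was measured at 31 positions outside b and c. Its svim score was -2.57 in A6 and -3.14 in E2, against 1.94, 2.78, 1.98, 2.44 and 1.85 in the comparison clones. Its difference was -5.06 ± 0.39 (SE, limma adjusted p = 2.14e-06), while cast, at 2.71 and 2.59, lay within the range of 1.64 to 3.30.

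Right of c, 4 of the 10 genes of the flank list that were measured passed, all later on svim: Trat1, Retnlb, Retnla and Retnlg. Trat1, which encodes a T cell receptor associated transmembrane adaptor, has its nearer end 110 kb right of c. Its svim score was -2.01 in A6 and -2.24 in E2 against 0.72 to 1.70, a difference of -3.31 ± 0.37 (SE, limma adjusted p = 6.67e-05). The resistin-like genes, which encode small secreted proteins, followed in order of distance. Retnlb differed by -2.85 (limma adjusted p = 7.36e-04), Retnla by -2.51 (0.0036) and Retnlg by -2.15 (0.0163). For Retnlg the svim score was -1.40 in A6 and -1.93 in E2 against -0.14 to 1.02, so the gap between the groups was smaller there. Without E2 the calls of Retnlb (limma adjusted p = 0.0517), Retnla (0.2010) and Retnlg (0.6792) were lost, which reduced the number of later genes from 7 to 4. Retnlg also failed without A6 (0.1030), 30kdel B11 (0.0520) or 30kdel C2 (0.0793), and with columns rescaled on distant positions Retnla (0.0743) and Retnlg (0.2028) failed.

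Farther right, Dzip3, which encodes an RNA-binding ubiquitin ligase, had a svim score of -1.41 in A6 and -1.65 in E2 against -0.62 to 0.33. Cip2a, which encodes an inhibitor of the phosphatase PP2A, had -1.74 and -1.83 against -1.22 to 0.03. In both genes the abc.del clones lay below all comparison clones, but neither passed over all genes (difference -1.44 and limma adjusted p = 0.2044 for Dzip3, -1.35 and 0.3896 for Cip2a). Against the 30kdel clones alone both passed (limma adjusted p = 3.03e-05 for Dzip3 and 2.21e-04 for Cip2a). That fit holds only A6, E2, 30kdel B11 and 30kdel C2, and with so few clones its spread leans on that of the other genes. Myh15, a myosin heavy chain gene, had -2.17 and -2.49, inside the comparison range of -2.54 to -0.38. Ift57, Cd47 and Bbx, at the far end of the list, had differences of -0.11, -0.04 and -0.39 and none passed. Left of the domain 0 of the 4 measured genes of the list passed in limma (Phldb2, Plcxd2, Cd96 and Nectin3, differences from -0.40 to 0.04, with no unadjusted p under 0.05). For the right flank list the median difference was -1.40 and for the left flank list -0.23. The lists lie at unlike distances, so these medians do not compare the sides. The left genes are 1692 to 2237 kb from the domain. On the right, the genes from Trat1 to Myh15 are 110 to 437 kb away, and Ift57, Cd47 and Bbx 1079 to 1571 kb.

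**Figure D4:**
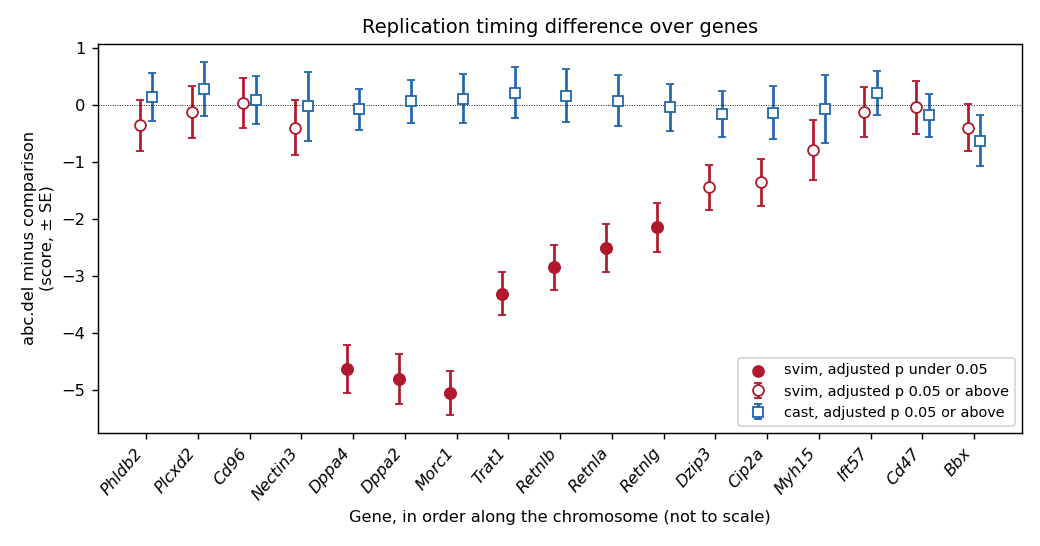
Score difference between abc.del and the 5 comparison clones (mean ± SE from limma) for the measured genes of the domain and flank lists in chromosomal order, svim as circles and cast as squares, filled where the adjusted p was under 0.05. Dppa4, Dppa2 and Morc1 are lowest on svim, the differences are smaller in Trat1 and the resistin-like genes, and no cast value is filled.

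For svim minus cast, 9 of 679 genes were lower (1.33%, limma adjusted p under 0.05) and 31 had an unadjusted p under 0.05. They were the 7 genes named above, Gm52257 and Arhgap31. Gm52257, which lies left of the domain in the first window of the run, differed by -1.90 (limma adjusted p = 0.0111).

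Adding the third deletion was examined against each double deletion, in a fit of all 3 double deletions, abc.del and the comparison clones over 59 domain positions. On svim the domain score was -1.04 and -0.82 in the ab.del clones D10 and D12. It was -0.06 and -1.64 in the ac.del clones E4 and H8, and 0.65 and 1.30 in the bc.del clones B3 and D12. With -2.72 and -2.90, both abc.del clones were later than all 6 double-deletion clones, and the double-deletion clones were later than all 5 comparison clones.

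Against bc.del, from which it differs by interval a, abc.del was later, with a difference of -3.78 ± 0.52 (SE, limma adjusted p = 0.0015), and 9 of 1889 windows passed, all later (0.476%), from 48100001 to 48650000. This call was lost when columns were rescaled on distant positions (-3.66, limma adjusted p = 0.1278). Against ab.del the difference was -1.88 ± 0.52 (limma adjusted p = 0.7465, unadjusted 0.0028), and against ac.del -1.96 ± 0.52 (limma adjusted p = 0.6125, unadjusted 0.0020). Neither passed, and 0 of 1889 windows passed in limma against either (unadjusted p under 0.05 in 8 and 10 windows). The ac.del clones differed widely, and the difference from ac.del was -2.75 without H8 and -1.17 without E4. They also differed on cast, at 2.46 in E4 and 1.54 in H8. The value of H8 lay below all 5 comparison clones (lowest 1.73), so its low svim score is in part shared by both alleles. Between b and c svim minus cast was -2.59 in E4 and -3.42 in H8, and -3.10 and -2.41 in the ab.del clones D10 and D12. Svim minus cast was not tested against the double deletions. The 3 comparisons share the abc.del clones, and with 2 clones against 2 the exact permutation test cannot give a p below 0.3333, which is what each gave.

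The difference from each double deletion varied along the domain. In ab.del, which keeps c, the svim score was -3.08 and -2.67 in the 100 kb left of the domain, below the -2.65 and -2.59 of the abc.del clones. It rose to -2.32 and -2.08 left of a, -1.18 and -0.99 between a and b, and -0.33 and -0.09 between b and c. The abc.del clones did not rise, so that the difference from ab.del went from 0.26 left of the domain to -0.52, -1.72 and -2.65 along it, and was -2.32 right of c. None of these passed over all windows (lowest limma adjusted p = 0.1246, between b and c).

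In ac.del, which keeps b, the difference was -1.59 left of a, -2.22 between a and b and -1.99 between b and c. At the outer ends it was -0.54 and -1.18. In bc.del, which keeps a, the difference was -3.77 left of a, -3.97 between a and b and -3.68 between b and c. It was -2.95 in the 100 kb left of the domain and -2.60 right of c. All 5 segments passed against bc.del (limma adjusted p from 0.0012 to 0.0223). The order of the 3 differences within a segment was not tested.

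**Figure D5:**
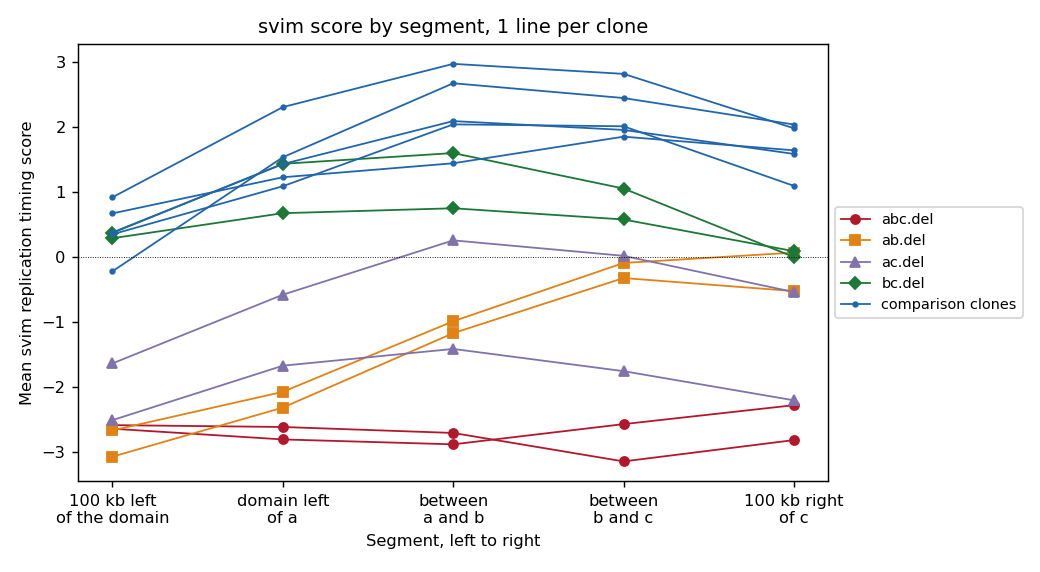
Mean svim score of each clone in 5 segments from left to right, 1 line per clone, for abc.del, the 3 double deletions and the comparison clones. The abc.del lines stay between -3.15 and -2.29, the ab.del lines rise from the left to the segment between b and c, and the comparison clones are highest between a and c.

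Among all cas/129 clones of the table with values in a segment, whatever their edit, the abc.del clones had the 2 lowest svim scores in each of 3 segments: of 36 clones left of a, and of 41 clones between a and b and between b and c. The nearest were ab.del D10 at -2.26 left of a, and ac.del H8 at -1.42 between a and b and -1.75 between b and c. On cast the abc.del clones ranked from 16 to 32 from the lowest in the same segments. These ranks are a description of the listed clones, many of which share deleted sequence.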

How the data were processed

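Repli-seq profiles of chromosome 16 were used as deposited. The build is mm10, and the tools Bowtie2, SAMtools and bedtools appear without versions, per the submitters' processing notes. Each deposited column holds a replication timing score every 5 kb, made by the authors from 1 early and 1 late fraction. How it was smoothed, filtered and scaled, and its log base, are not stated in what was used here; differences are therefore score units and no fold changes. Depth is unknown. Smoothing makes neighbouring positions dependent and can carry values over deletion edges. The table has 6 more columns of per-sample values, left unused because no listed sample bears their names.

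The A6 libraries were averaged. Positions inside the deletions of the clones compared were left out of the tests, and those inside the 24.5kinv inversion were kept; values of abc.del libraries alone left out intervals a, b and c. Windows of 50 kb needed values at 50% of their positions. The domain, 5 segments and all windows were fitted with limma 3.58.1 (lmFit, eBayes) in R 4.3.3 on abc.del and the 5 comparison clones (for the double deletions, on these and the 3 double deletions), two-sided, with Benjamini-Hochberg adjustment over that table and a threshold of 0.05. Genes (RefSeq, GRCm38.p6) were fitted separately; short genes took the nearest position within 2.5 kb. Exact permutation tests were over clones. The procedure was checked on simulated shifts with independent noise in each window, placed at random. That check does not cover the dependence of neighbouring windows. Named items are every gene of the lists, both ends of the called run, and the 3 windows over 2 Mb from every edit with the greatest svim minus cast difference. Guca1c, Retn, Hhla2 and Zbed2 were not matched to a measured gene. The members, gene lists and tests were chosen with earlier results of these data known.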

Additional observations from a re-analysis of the deposited data

Results flagged for a closer look

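The difference between abc.del and the comparison clones was not the same for the alleles, by the limma test of svim minus cast: -4.93 over the domain, -2.67 in the 100 kb left of it, -3.99 left of a, -5.23 between a and b, -5.21 between b and c and -4.33 in the 100 kb right of c (adjusted p from 4.46e-08 to 1.56e-04, with both abc.del clones below all 5 comparison clones in each). Among the comparison clones none of 18 sets of domain and segment values held a clone apart from the others by Dixon's test.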

How the results depend on the processing

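The svim domain difference kept its direction and its call under every alternative tried, from -5.12 to -4.78 (leaving out 1 clone, from -5.00 to -4.71), as did the 5 segments and svim minus cast of the domain. Leaving out the 25 kb beside the deletions leaves no position in the 100 kb right of c, so that segment has no value there. The number of called windows changed under 4 alternatives, and the cause was not tested: on svim 9 with the 25 kb beside deletions left out, 42 against the 30kdel clones alone, 27 with 25 kb windows and 8 with 100 kb windows; for svim minus cast 9, 29 with 25 kb windows and 9 with 100 kb windows. Against the 30kdel clones alone 21 genes were called on svim; leaving out 1 clone gave 4 to 8 genes, 11 to 15 windows and a run of 700 to 900 kb. The cast domain difference, near 0, changed sign with A6 library 2 alone (-0.0010), against the 30kdel clones alone (-0.025) and over left-out clones (-0.15 to 0.20). The percentile difference was -63.3 against the 30kdel clones alone and -65.5 to -55.7 over left-out clones, where the exact permutation test cannot go below 0.0667. Against bc.del the domain difference was -3.66 (adjusted p = 0.1278) after rescaling on distant positions. Among the flank genes far from the domain, differences near 0 changed sign: Cd47 after rescaling (0.025) and quantile normalization (0.22), Ift57 (0.10) and Plcxd2 (0.14) after quantile normalization, and Cd96 against the 30kdel clones alone (-0.18); over left-out clones they ran from -0.54 to 0.46 for Cd47, -0.55 to 0.32 for Ift57, -0.32 to 0.084 for Plcxd2, -0.20 to 0.20 for Cd96 and -0.86 to 0.070 for Nectin3. Rescaling on distant positions moved the median of all windows to 0.10 on svim and 0.12 on cast. No paired analysis was possible because the replicate numbers in the labels mark repeat libraries of 1 clone and pair no samples across genotypes. Depth is unknown, so the 2 abc.del clones set the precision.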

Other observations

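The 3 windows over 2 Mb from every edit with the greatest difference of svim minus cast adjoin each other at chr16:38550001-38700000, over Arhgap31 and its neighbours Poglut1 and Tmem39a. The differences were -1.46, -1.49 and -1.42 from left to right, and none passed in limma (adjusted p = 0.2996, 0.1142 and 0.0643). In the middle window svim minus cast was -1.14 in A6 and -1.80 in E2, against -0.55 to 1.01 in the comparison clones. Over its gene body Arhgap31 differed by -1.45 and passed over all genes (limma adjusted p = 0.0462), and was lost under 7 of the 13 alternatives, among them leaving out A6 (0.1429), E2 (0.9974), 30kdel C2 (0.1104) or 14kdel D11 (0.0812). Over the 1795 distant windows the median size of the difference was 0.19 and the 95th percentile 0.54.

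The late svim profile of abc.del had a shallow local maximum right of c, picked out after the profiles were seen. It was -1.27 in A6 library 1, 305 kb right of c, -1.24 in A6 library 2 at 299.6 kb and -1.61 in E2 at 339.6 kb, within or just before Dzip3. The comparison clones had means of 0.11, 0.14 and -0.11 at these positions and fell there from their peak.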
